A study of Mus musculus with 5 samples.

Results

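The genes described here encode the protein components of the small (40S) ribosomal subunit. They were taken as the Rps genes named as such in the gene table, together with Rpsa and Fau, leaving out pseudogenes, paralogs with a suffix and mitochondrial proteins. The rule gave 27 genes of the 18349 listed with a mRNA level.

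The small subunit scans and decodes mRNA, and each copy holds 1 molecule of nearly every one of these proteins, which are assembled on 18S rRNA. The mRNAs of ribosomal proteins are short and abundant, and most begin with a 5′ terminal oligopyrimidine tract that couples their translation to growth signals. PABPC1, the cytoplasmic poly(A)-binding protein, coats poly(A) tails, binds the initiation factor eIF4G at the other end of the mRNA, and also binds A-rich stretches within transcripts. In red cell precursors the genes have a particular medical interest, since loss of 1 copy of RPS19, RPS24, RPS26 and several others causes Diamond-Blackfan anaemia.

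The study mapped where PABPC1 touches RNA in MEL cells, a mouse erythroleukaemia line that resembles early erythroid precursors. For 3 CLIP-seq samples the cells were irradiated with ultraviolet light at 400 mJ/cm2, the RNA was trimmed with RNase for 10 min, and fragments bound to PABPC1 were recovered with an antibody. Another 2 samples of the same line were sequenced as mRNA. There was no second treatment, genotype or time, and no antibody control enters the values given here. Peaks (90337) and deletion sites (11907) were each deposited as a list merged over the 3 CLIP samples. For the 2 mRNA samples there was 1 RPKM value per gene, the reads per kilobase of gene scaled to library size. No value below therefore has a replicate error, and no difference was tested. Intervals in brackets are exact Clopper-Pearson 95% intervals and cover counting error only. In such bulk data fewer cells with a transcript and less RNA per cell cannot be told apart. Among erythroid markers Klf1 stood at 428 RPKM, Epor at 225, Gata1 at 211 and Tfrc at 103, while Slc4a1, a late marker, stood at 0.122. Of the markers of the fibroblast line named in the growth protocol, Col1a1 stood at 0.873 RPKM, Pdgfrb at 2.60 and Thy1 at 65.3, and Col1a2, Col3a1 and Fn1 were not listed.

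Both kinds of CLIP signal were placed on the genes. A peak is a cluster of CLIP tags, and its height is the authors' score, read as the largest number of tags over a base. A deletion site is a base that is missing from some of the tags over it, the mark that reverse transcriptase leaves at a crosslinked base, so it places the contact more finely than a peak does. Altogether the 27 genes held 74 exonic peaks with a summed height of 13056 tags, 0.382% of the height of all peaks, and 27 deletion sites with 774 deletions.

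The deletion sites are shown first, since they carry the plainest pattern in these genes: 15 of the 16 in 3′ UTRs had the polyadenylation signal AATAAA within 20 nt, and 0 of the 7 in the coding sequence (CDS) and 0 of the 4 in 5′ UTRs did. Over all protein-coding genes the shares in these regions were 33.8%, 7.91% and 13.3%. The sequences below are from GENCODE transcripts on mm10, 5′ to 3′ on the strand of the gene, with every deleted base in capitals and up to 14 bases on each side of the site. For each gene with a site the one with the most deletions is shown, except for Rps14, whose sequence is not printed. The windows of Rps10, Rps23 and Fau and the 3′ UTR site of Rps20 fall outside the naming rule and were chosen after their values were seen.
Rps24, 3′ UTR, chr14:24495823-24495851 (+): atttctgagaggacAaataaactaaaaag
Rps21, 3′ UTR, chr2:180258408-180258436 (+): gttacaaataaaagTTttaagtacctgtg
Rps26, 3′ UTR, chr10:128624557-128624585 (-): aggacggaaggaaAAttaccctggaaaaA
Rps10, 3′ UTR, chr17:27630419-27630447 (-): tattgaataaacttTaaagaaaaacatgt
Rps25, 3′ UTR, chr9:44410358-44410386 (+): ttgatgcctgaaagAAaataaaaacttag
Rps23, 3′ UTR, chr13:90924929-90924950 (+): gtgtcatagaggtcTttaattg
Fau, 3′ UTR, chr19:6059484-6059512 (+): ccaccctgccatgcTaataaagccactgt
Rps20, 3′ UTR, chr4:3834477-3834505 (-): cctaagacaactgaAtaaatcgtcttaat
Rps20, CDS, site at chr4 base 3835286 (-), window across an exon junction: tcagccatggcattTaaagataccggaaa
Rps9, CDS, chr7:3704360-3704388 (+): cgccagaagctgggTttgtcgcaaaacct
Rps3, CDS, chr7:99482296-99482324 (-): tcggatcagagagtTgaccgcagttgtcc
Rps15, 5′ UTR or CDS, chr10:80292806-80292834 (+): tccgcaagttcaccTaccgtggcgtagac

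The site with the most deletions was in Rps24, whose protein sits in the body of the subunit. There 283 of 1052 tags were deleted, 26.9% [24.2 to 29.7], at an A directly before the AATAAA, 8 nt from an annotated transcript end. In Rps21 the T following the signal by a few bases was deleted in 69 of 498 tags, 13.9% [10.9 to 17.2], 23 nt before the end. The neighbouring T carried 15 deletions in 525 tags. Rps10, whose protein lies near the mRNA entry channel, had 17 deletions in 91 tags, 18.7% [11.3 to 28.2], 9 nt before the end. In these 3 genes the deleted base, the signal and an annotated end lay within a short stretch.

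The other 3′ UTR sites had a smaller share of their tags deleted. Rps26, whose protein lines the mRNA exit channel, had 4 sites at 20, 34, 35 and 52 nt before its end, with 27, 31, 17 and 19 deletions. Rps3 had 21 deletions in 515 tags, 4.08%, at an A within the signal 24 nt from the end, and 6 deletions in 164 tags at 31 nt. Rps25, whose protein is needed by several viral internal ribosome entry sites, had 11 deletions in 95 tags and 9 in 99 at adjoining A's, 55 and 54 nt from its end. Fau, which encodes a ubiquitin-like protein fused to the ribosomal protein, and Rps23, whose protein reaches the decoding centre, each had 6 deletions, in 54 and 83 tags, at 12 and 7 nt from the end. A second Rps24 site, with 6 deletions in 77 tags, lay 24 nt before the end of the longer annotated transcript and was the only one of the 27 sites outside a peak. Rps20 differed: its 3′ UTR site, 25 of 846 tags at an A within the signal, lay 10 nt after the stop codon and 3157 nt from the annotated end. Apart from that site, each 3′ UTR site was close to an annotated end.

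Counted over sites, 15 of the 16 in 3′ UTRs had AATAAA within 20 nt on either side, 93.8% [69.8 to 99.8], on the transcript strand. Among the 8707 3′ UTR sites of all protein-coding genes with an RPKM of at least 1 the share was 33.8%, and among the 58 of large-subunit genes 44.8% [31.7 to 58.5]. The exception among the small-subunit sites was Rps26 at base 128624589, 52 nt before the end. Sites of a gene share their transcript, so the count was also taken with only the 3′ UTR site of each gene that had the most deletions: AATAAA was near it in 9 of 9 small-subunit genes [66.4 to 100], in 6 of 19 large-subunit genes, 31.6% [12.6 to 56.6], and in 40.6% of 3578 protein-coding genes. Position moves with this count. The 3′ UTR sites of the small-subunit genes lay a median of 24 nt from the nearest annotated end, against 123 nt over all genes, and 15 of 16 lay within 100 nt, against 46.9%. Within that last 100 nt the shares with AATAAA were 14 of 15 for the small subunit, 93.3% [68.1 to 99.8], 19 of 27 for the large subunit, 70.4% [49.8 to 86.2], and 52.1% of 4081 sites in all. The part of transcript length in this count was not tested beyond that restriction. A deleted A made up 10 of the 16 and a deleted T the other 6.

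None of the 7 CDS sites [0 to 41.0%] and none of the 4 5′ UTR sites [0 to 60.2%] had AATAAA nearby. Over all genes it was near 7.91% of 885 CDS sites and 13.3% of 75 5′ UTR sites, shares that both intervals include. Of the 40 CDS sites of large-subunit genes 0 had it. The variant signal ATTAAA was in the same window of 0 of the 27 sites [0 to 12.8%], beside 5.08% of sites over all genes. A run of AAAAAA and the letters ATATAA were likewise near 0 of the 27, beside 11.8% and 13.0%. No match says only that these letters are not in the window.

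The sites outside 3′ UTRs were in 5 genes. Rps20, whose protein belongs to the head of the subunit, had the highest deleted share of all 27 sites, with 40 of 132 tags, 30.3% [22.6 to 38.9], at a T 8 nt after the start codon's first base. This T lies within 14 nt of an exon junction, under a peak whose midpoint fell in the intron. How tags were aligned across that junction was not examined. Rps9, whose bacterial counterpart is a primary binder of the small-subunit rRNA, had 52 of 300, 17.3% [13.2 to 22.1], at a T 22 nt into its CDS. Rps3, whose protein guards the mRNA entry channel, had 22 of 275, 8.00% [5.08 to 11.9], and 9 of 125 at another T further downstream. Rps14, a platform protein whose human gene lies in the region lost in the 5q- syndrome, had 16 of 588 and 9 of 694 deletions, at a G and a C that lie 14 and 20 nt before the end of the CDS. Of the 7 CDS sites, which lie in 4 genes, 5 were at a T, 1 at a C and 1 at a G, and none was at an A [0 to 41.0%]. An A made up 44.4% of the 885 CDS sites over all genes and 37.5% of the 40 of large-subunit genes.

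In the 5′ UTR, Rps20 carried 3 sites, at 44, 47 and 48 nt before the start codon, with 20 of 691, 10 of 777 and 9 of 776 tags deleted. The 10 bases after these sites held 1, 0 and 0 A's, against a median of 4 after the 3′ UTR sites. The Rps15 site, with 10 deletions in 214 tags, is in the 5′ UTR of 1 annotated transcript and in the CDS of another, 48 nt after the start. Rps15 encodes a head protein near the decoding site.

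**Figure D1:**
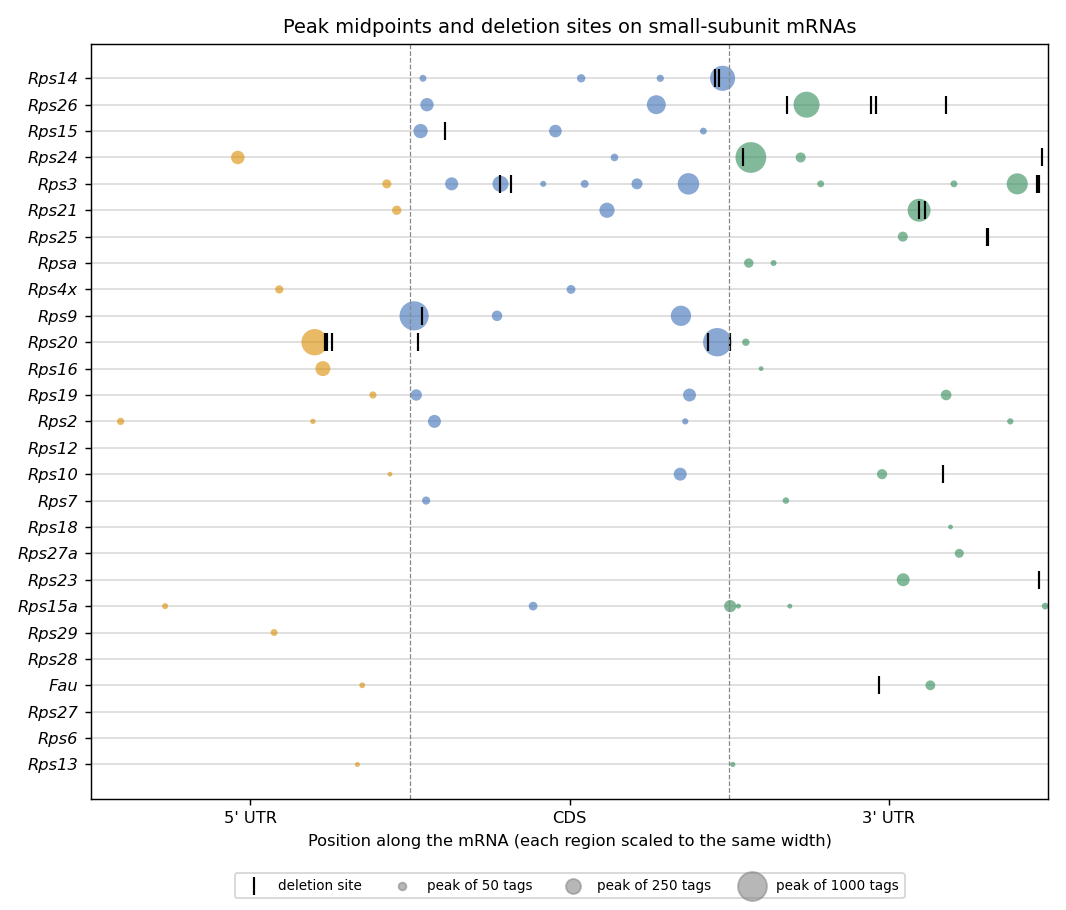
Midpoints of the exonic peaks (circles that grow with height in tags) and deletion sites (black ticks) along the principal transcript of each gene, ordered by RPKM, with 5′ UTR, CDS and 3′ UTR scaled to the same width and coloured by the region on that transcript. The 68 peaks and 27 sites on principal transcripts are drawn, and the 6 peaks in other annotated exons are not; Rps20, with 6 sites, has ticks in all 3 regions, and the site with the most deletions, in Rps24, is near the left edge of the 3′ UTR because the longer annotated form is drawn.

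Counted by gene, 12 of the 27 genes had a deletion site in an exon, beside 37.0% of the 10211 protein-coding genes with an RPKM of at least 1. A site in the 3′ UTR was present in 9 genes (background 35.0%), in the CDS in 4 (4.97%) and in the 5′ UTR in 2 (0.382%). The site shares were 59.3% in 3′ UTRs [38.8 to 77.6], 25.9% in the CDS [11.1 to 46.3] and 14.8% in 5′ UTRs [4.19 to 33.7]. Over all protein-coding genes these were 90.0%, 9.17% and 0.786%, and over the 99 sites of large-subunit genes 58.6%, 40.4% and 1.01%. Of the 4 small-subunit sites in 5′ UTRs, 3 came from Rps20. Annotated 5′ UTR made up 14.5% of the members' transcript length and 6.52% of that of all genes.

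The exonic peaks were spread over all 3 regions. At least 1 exonic peak was found in 24 of the 27 genes (background 96.6%), a peak of at least 9 tags, the median of the whole list, in 23 (90.7%), and a peak of at least 74 tags in 18 (55.3%). The 3′ UTR held a peak in 19 genes (92.1%), the CDS in 14 (70.0%) and the 5′ UTR in 16 (14.1%). Of these 16, Rps15, Rps27 and Rps27a had a 5′ UTR peak by other annotated transcripts only, not by the principal one. The share over all genes was not counted on principal transcripts alone. Of the 74 exonic peaks 28 lay in the 3′ UTR, 37.8% [26.8 to 49.9], 27 in the CDS, 36.5% [25.6 to 48.5], and 19 in the 5′ UTR, 25.7% [16.2 to 37.2]. Over the 73802 exonic peaks of all protein-coding genes the same shares were 54.8%, 42.6% and 2.61%. By summed height the CDS came first, with 47.7% of the tags against 20.7% over all genes, followed by the 3′ UTR with 37.3% against 77.8% and the 5′ UTR with 15.0% against 1.45%. The tallest peak was in the 3′ UTR of 11 genes, in the CDS of 9 and in the 5′ UTR of 4. Large-subunit genes had a like spread, with 44.2% of 120 peaks in 3′ UTRs, 32.5% in the CDS and 23.3% in 5′ UTRs. The 47 listed genes of a 50-gene set of 40S assembly factors, which are not ribosomal proteins but belong to the same pathway, had 27.4%, 71.2% and 1.39% of 361 peaks in these regions and a 5′ UTR peak in 5 genes. Their transcripts are longer, with a median of 2921 nt against 791 nt.

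**Figure D2:**
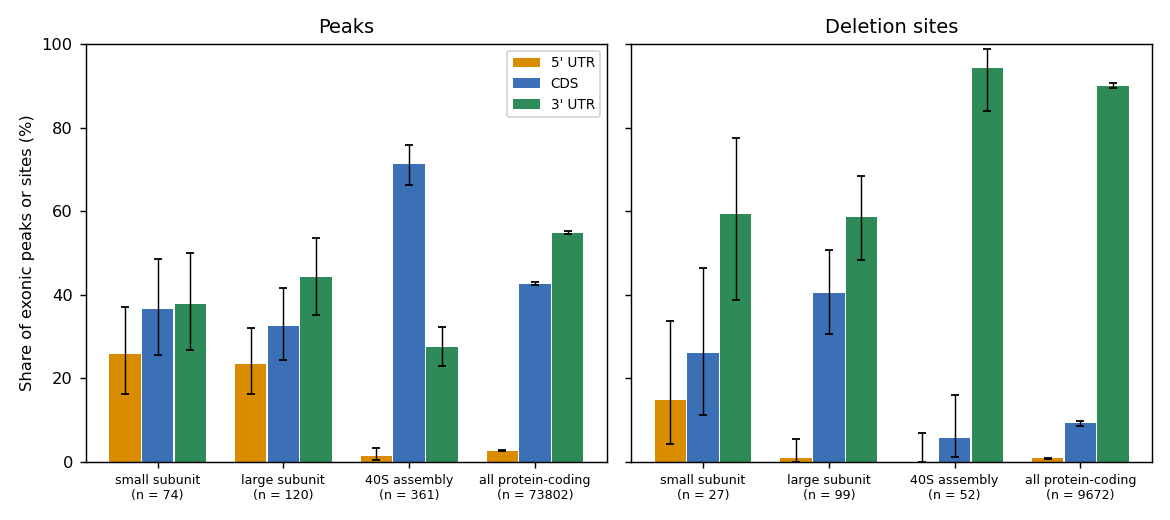
Share of exonic peaks (left) and of deletion sites (right) by annotated region, in percent, for small-subunit, large-subunit and 40S assembly genes and all protein-coding genes, with exact 95% intervals that cover counting error only. The 5′ UTR held 25.7% of small-subunit peaks and 2.61% of all peaks.

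Peaks in the 5′ UTR were also more frequent among abundant mRNAs in general: they were present in 36.7% of the 455 protein-coding genes with an RPKM of at least 200, and in 5 of the 10 small-subunit genes above that level. In the range from 5 to 200 RPKM they were in 14.8% of genes and in 11 of 17 small-subunit genes. The tallest were in Rps20, at 828 tags over chr4:3835479-3835601, and Rps16, at 252 tags over chr7:28350721-28350803. Rps16 encodes a head protein whose tail touches the tRNA in the P site, and almost all of its summed height of 256 tags was in this peak. The others of at least 74 tags were in Rps15 with 228, Rps24 with 200, Rps21 with 83 and Rps3 with 77 tags. The Rps15 peak is in the 5′ UTR by some annotated transcripts only. On the principal transcript of Rps15 its midpoint lay in the CDS, 14 nt after the start codon. Of the 19 peaks, 8 covered the start codon and 4 reached the first 20 nt of an annotated transcript, those of Rps2, Rps4x, Rps15a and Rps24. Peaks over the start codon thus extend into the CDS and are called 5′ UTR only by their midpoint. Peaks over the start codon and at the first 20 nt were not counted over all genes.

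The annotated starts were searched for the oligopyrimidine tract in RefSeq promoter windows, which were found for 23 of the 27 genes. A C followed by 4 bases that are C or T within 5 nt of the start was present in 12 of the 23, 52.2%. The same letters were near the start of 24.0% of 8181 protein-coding genes with a window and of 16 of 34 large-subunit genes. At the exact annotated start the counts were 7 of 23, 2.96% of all and 7 of 34. The 4 peaks at the first 20 nt are too few to set beside this.

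At the other end of the CDS, 9 exonic peaks covered the stop codon, in Rps3, Rps10, Rps13, Rps14, Rps15a, Rps20, Rps25, Rps26 and Rps27a. The share over all genes was not counted, so whether 9 is many for such transcripts is not known. Their heights ran from 9 tags in Rps13 to 965 in Rps20. The 3′ UTR of these genes is short, at a median of 64 nt against 945 nt over all protein-coding genes, so a peak over the stop codon can also reach the transcript end. The Rps14 peak of 748 tags is an example: its midpoint was 9 nt before the end of the CDS and it ran to the end of the transcript.

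Taking the tallest exonic peak of each gene, the 5 genes with the tallest were Rps24, Rps9, Rps20, Rps26 and Rps14. The Rps24 peak had 1134 tags and lay in the 3′ UTR at chr14:24495810-24495923, over the site with 283 deletions. It ranked 185 in the list of 90337 peaks. The Rps9 peak, 1017 tags over chr7:3704269-3704449, covered the start codon, and a second peak of 480 tags at chr7:3706682-3706798 lay in the 3′ UTR of 1 transcript and in the CDS of others. The Rps20 peak, 965 tags over chr4:3834452-3834577, ran across the stop codon. The Rps26 peak had 803 tags over chr10:128624530-128624640, from before the stop codon to the end of the transcript, and held all 4 of the gene's deletion sites. Of the 74 exonic peaks 14 held a deletion site, a share that was not counted over the peaks of all genes.

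In introns there were 9 peaks, in 6 genes (background 35.1%), and 4 of them overlapped small RNA genes: Snora64 in Rps2, Snord15a in Rps3, Gm23130 in Rps12 and Snord14a in Rps13. Host introns of ribosomal protein genes are a known source of small nucleolar RNAs. The tallest intronic peak, with 148 tags, was in Rps20 at chr4:3835231-3835372, where the midpoint fell outside the exon but 61 bases of the transcript were covered. The Rps20 CDS site with 40 deletions lay under it, and its tags are not part of the exonic height. Rps12 had 41 tags in a peak that covered 39 exonic bases and 17 over Gm23130.

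Listed RPKM split the family. The RPKM was between 400 and 1932 in 10 genes (Rpsa, Rps3, Rps4x, Rps9, Rps14, Rps15, Rps21, Rps24, Rps25 and Rps26) and between 8.24 and 141 in the other 17. RPKM is scaled to the length of the gene but not to how much of its sequence is shared with other loci. These levels therefore compare between genes only within the limit given below for shared sequence. The highest were Rps14 at 1932, Rps26 at 1898 and Rps15 at 1644. The lowest were Rps13 at 8.24, Rps6 at 9.66 and Rps27 at 10.0. Rps6 encodes the phosphorylated target of S6 kinase. The large-subunit genes ran over a like range, from 3.14 to 4768 with a median of 57.4, beside 40.7 for the small subunit. The median over all protein-coding genes with an RPKM of at least 1 was 19.6. Low RPKM values of 3560 genes with the same identifier version as the annotation came out as whole reads within 0.02 at a total of 3.53e+07 reads, which gave 29832 reads for Rps4x, 20238 for Rps20 and 460 for Rps29. For these 3 genes counting error is small beside the gap between the groups. Rps4x and Rps20 lay nearer in reads than in RPKM, at 519 and 141 RPKM, with 0.975 and 3.71 kb of exon.

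**Figure D3:**
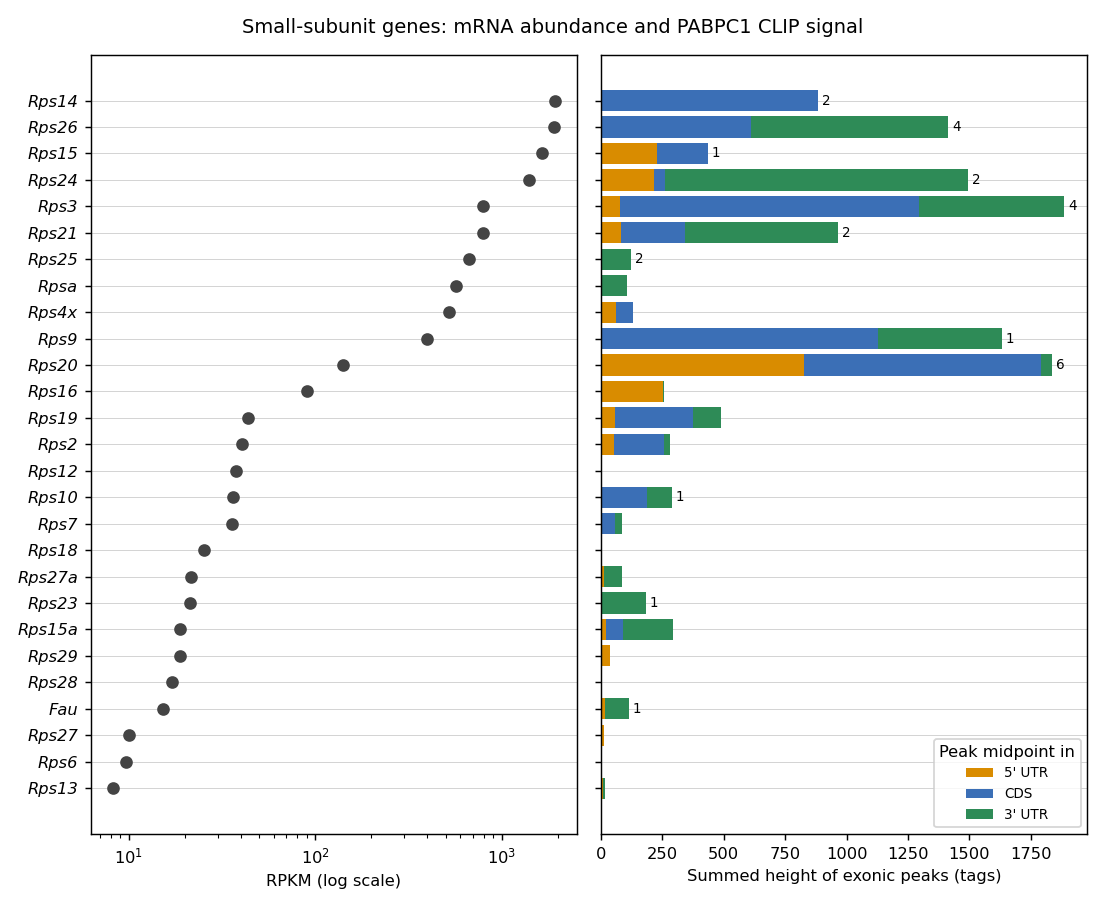
RPKM on a log scale (left) and summed height of exonic peaks in tags, coloured by the region of the peak midpoint (right), for the 27 genes in order of RPKM, with the number of exonic deletion sites at the bar end. Rps14 at 1932 RPKM had 885 tags, Rps20 at 141 RPKM had 1837 tags, and Rps6, Rps12 and Rps28 had no peak midpoint in an exon.

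The RPKM values moved with how much of the CDS is found nowhere else in the genome annotation. Ribosomal protein genes have many processed pseudogenes, intronless copies of their mRNA. A stretch of 30 bases was called unique when it was in no transcript of another annotated locus, a measure chosen after the RPKM values were seen. The median share of unique stretches in the CDS was 3.41% over the 27 genes and 100% over all protein-coding genes, and 26 of the 27 were under 50%, beside 8.00% of all. The exception was Rps3, at 79.9%. The share was 0 in 11 genes, and the median was 21.5% in the 10 genes with an RPKM of at least 200 and 0 in the 17 below. Across the 27 genes Spearman's rho between RPKM and this share was 0.72 (Pearson's r with log2 RPKM 0.57). It was 0.54 over the large-subunit genes and -0.07 over all protein-coding genes with an RPKM of at least 1. Between summed peak height and the share rho was 0.80, beside 0.57 over the large-subunit genes and -0.004 over all. Between RPKM and summed height it was 0.72, beside 0.54 and 0.68. The points share their libraries and, through the copies, their sequences, and genes are not independent replicates. The sources used here do not give how reads that fit several places were handled, and their part in the low values was not tested.

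**Figure D4:**
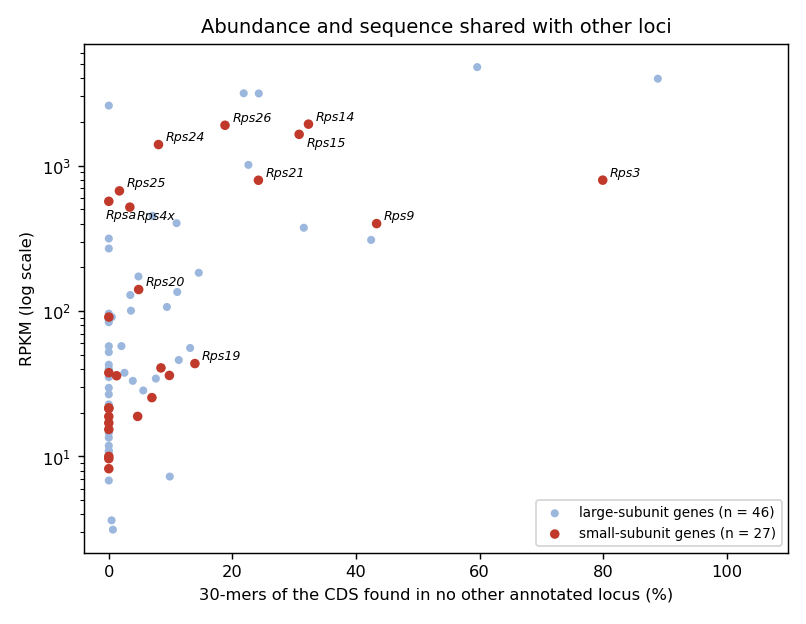
RPKM (log scale) against the percentage of 30-base stretches of the CDS found in no other annotated locus, for the 27 small-subunit genes (red) and 46 large-subunit genes (blue). Of the 11 small-subunit genes at 0%, Rpsa stood at 569 RPKM and the other 10 at 90.9 RPKM or less.

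The copies themselves had values. Pseudogenes with at least 90% identity over at least 80% of a member's CDS numbered 264, belonged to 26 of the 27 genes, and 127 were listed with an RPKM. Their RPKM summed to 36910, against 11212 for the 27 genes. They outweighed their parent gene in 20 cases, 15 of the 17 genes under 200 RPKM and 5 of the 10 above. Rps6 stood at 9.66 RPKM beside 1427 for its copies, Rps16 at 90.9 beside 3110, Rps29 at 18.8 beside 7357 and Fau at 15.3 beside 1803. A peak was present in 75 of the 264 copies and a deletion site in 8, shares that were not counted over other pseudogenes. The RPKM of a member and of its near-identical copies is therefore uncertain, and the same holds for peak heights within shared sequence. Stretches under exonic peaks were unique at 76.1% of transcript positions against 54.2% outside the peaks, in the same 27 transcripts. In Rpsa, Rps16, Rps27a, Rps29 and Fau every transcript position under a peak was unique.

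Set against abundance, the CLIP signal differed between genes. The measure was log2((summed exonic height + 1)/(RPKM + 1)), in which height is not divided by length and RPKM is, and the added 1 pulls the ratio of low genes towards 0. Its median was 0.79 over the 27 genes, 1.23 over the 46 large-subunit genes, 1.70 over the assembly genes and 2.78 over all protein-coding genes, and it was below 0 in 10 of the 27 genes (background 6.82%). Length moves with this difference: with height per kb of exon the medians were 1.04, 1.06 for the large subunit and 1.14 over all genes. Per kb of exon the median height was 154 tags for the small subunit, 207 for the large subunit and 55.0 over all genes. In the 10 genes with an RPKM of at least 200 the median log2 ratio was -0.77, beside 1.26 over all protein-coding genes of that level, and it was below 0 in 6 of the 10 (background 15.2%). In the 17 others it was 1.48, and 2.87 over all genes from 5 to 200 RPKM. A deletion site was present in 8 of the 10 (background 84.0%) and in 4 of the 17 (40.5%).

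**Figure D5:**
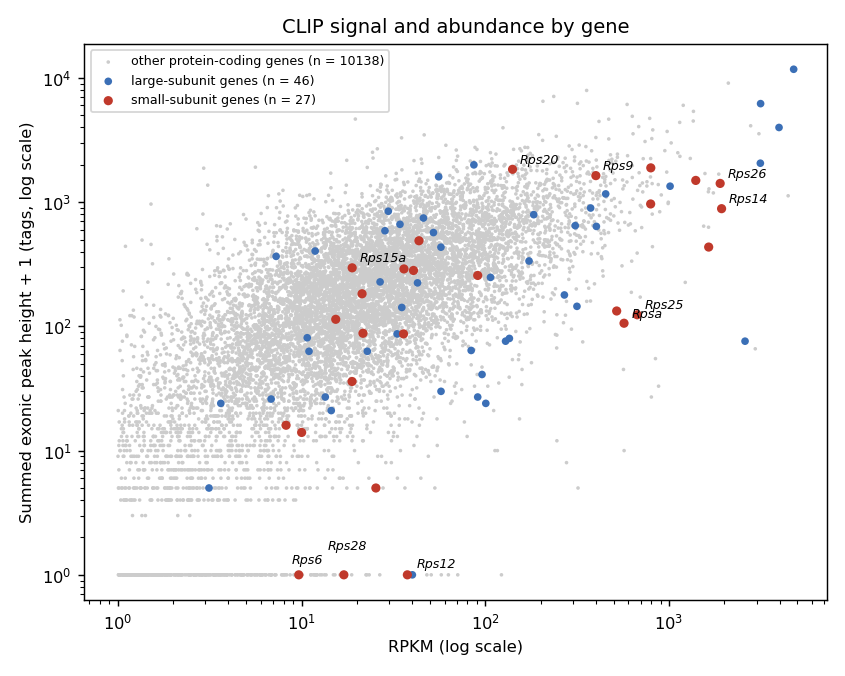
Summed height of exonic peaks plus 1 (tags, log scale) against RPKM (log scale) for small-subunit genes (red), large-subunit genes (blue) and other protein-coding genes with an RPKM of at least 1 (grey). Rpsa, Rps4x and Rps25 lie below most genes of their RPKM, and Rps6, Rps12 and Rps28 lie on the floor with no peak midpoint in an exon.

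The highest ratios were in Rps15a at 3.90, Rps20 at 3.70 and Rps19 at 3.46. Rps15a, a body protein gene at 18.9 RPKM, had 295 tags in 6 peaks, of which the tallest, 159 tags at chr7:118109050-118109121, covered the stop codon. Its principal transcript has a 3′ UTR of 4728 nt, against a median of 64 nt in the family. Rps20 had 1837 tags at 141 RPKM, and its 3′ UTR is also long, at 3167 nt. RPKM is divided by length and the summed height is not. The part of length in the ratios of Rps15a and Rps20 was not tested. Rps19, the gene most often mutated in Diamond-Blackfan anaemia, had 488 tags in 5 peaks at 43.5 RPKM and no deletion site. Its peaks of 182, 136 and 114 tags lay near the end of the CDS, at the start codon and in the 3′ UTR. None of these 3 genes reached 200 RPKM. With the RPKM of the listed pseudogene copies added, the ratio was -3.03 for Rps15a, -0.59 for Rps19 and 3.70 for Rps20, and the highest after Rps20 were then Rps9 at 2.03 and Rps2 at 1.76. Peaks on the copies were not added to the height, so this addition could only lower a ratio. The copy Rps19-ps6 held a peak of 733 tags, beside the 488 tags of Rps19.

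The lowest ratios were in the 3 genes without an exonic peak, and their values rest on the added 1. They were -5.27 for Rps12 at 37.7 RPKM, -4.17 for Rps28 at 16.99 and -3.41 for Rps6 at 9.66. By midpoint, Rps12 and Rps28 had intronic peaks only and Rps6 had none. The value of Rps12 also rests on the midpoint rule, since its intronic peak of 41 tags covered 39 exonic bases. With any overlap of 1 nt with an exon counted, 25 genes had an exonic peak, Rps12 among them. All 3 had a unique CDS share of 0, which 11 of the 27 genes had. The proteins of all 3 have no bacterial counterpart, which holds for 14 of the 27. The Rps6 locus is chr4:86854660-86857412 and 15.1% of its transcript was unique. Among abundant genes the lowest were Rps25 at -2.44, Rpsa at -2.43 and Rps4x at -1.97. Rpsa, also known as a laminin receptor precursor, had 105 tags in 2 peaks just after its stop codon at 569 RPKM. Rps4x, the X-linked member, had 132 tags in 2 peaks at 519 RPKM, and Rps25 had 123 tags in 2 peaks at 671 RPKM.

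The remaining genes filled the range between these. Rps2, Rps7 and Rps10 stood at 40.7, 35.9 and 36.1 RPKM with 281, 86 and 289 tags. Rps27a, a ubiquitin fusion gene, and Rps23 stood at 21.6 and 21.4 RPKM with 87 and 182 tags, and Fau at 15.3 RPKM with 113. Rps29 had 35 tags and Rps18 only 4, at 18.8 and 25.4 RPKM. Rps13 and Rps27, the least abundant beside Rps6, had 15 and 13 tags. Rps18 had the fewest tags of the 24 genes with an exonic peak.

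Grouped by place in the subunit, the 12 head genes had a median of 40.6 RPKM and a median log2 ratio of 1.05, with an exonic peak in 10 and a deletion site in 5. The 15 body and platform genes had 40.7 RPKM and 0.35, with a peak in 14 and a site in 7. Grouped by descent, the 13 genes with a bacterial counterpart had a median of 90.9 RPKM, a median log2 ratio of 1.24 and a peak in 13. The 14 genes without had 36.9 RPKM, 0.19 and a peak in 11. The ranges overlapped widely in both groupings, from -5.27 to 3.70 in the head and from -3.41 to 3.90 in the body.

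Gnb2l1, which encodes RACK1, a scaffold protein bound to the head of the small subunit that is not an Rps protein, stood at 1355 RPKM. Its 8 exonic peaks had a summed height of 4498 tags, above each of the 27 genes, and it had 14 deletion sites. Its log2 ratio was 1.73 and 94.9% of its CDS was unique.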

How the data were processed

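PABPC1 CLIP-seq (3 samples) and mRNA-seq (2 samples) of MEL cells were read from 3 deposited tables. RPKM values per gene were deposited as 1 column for both mRNA samples. Peak scores, read as heights in tags, and the count of deletions at each site were deposited by the authors as lists merged over the CLIP samples. Of the 10137 deletion sites inside a peak, 99.8% had no more tags than the peak height. Per the submitters' processing notes the build was mm10 and the tools were TopHat2 2.0.12, HTSeq 0.6.0, Novoalign 3.02.02 and cutadapt 1.4.2, with no role stated. The peak caller, its threshold and the treatment of reads with several matches are not given in the sources used here. RPKM identifiers were matched to GENCODE M21 without version (3 of the 27 versions were equal).

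Peaks, by midpoint, and sites were placed on GENCODE M21 basic transcripts of the same strand, in the order 3′ UTR, 5′ UTR, CDS, intron. The background was 10211 protein-coding genes with an RPKM of at least 1. Principal transcripts were the APPRIS choice. Copies were found with blastn 2.17.0. Promoter windows were RefSeq's. Values were computed with Python 3.11.15, numpy 2.4.6 and scipy 1.17.1, and the placement was tested on simulated data. Named genes were those with CDS or 5′ UTR sites, most sites, tallest peaks, a 5′ UTR peak of at least 74 tags, no exonic peak, or extreme RPKM or ratio. The genes, the gene lists and the splits were chosen with earlier results of these data known.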

Additional observations from a re-analysis of the deposited data

How the results depend on the processing

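No paired analysis was possible because the samples were deposited as pooled values with no replicate column; for the same reason no replicate could be left out. Of 21 recomputed values 18 stayed within their interval or limit, which for the median log2 ratio was a move of 0.5. Only values of the small-subunit genes were judged, not their differences from other genes. Among the 18 was the fall from 24 to 18 genes with a peak at a threshold of 74 tags. Height per kb of exon was another, though the difference of the median ratio from all genes went from -1.99 to -0.09. Counting only sites with at least 10% of tags deleted left 7 genes with a site instead of 12. With the tallest exonic peak in place of the summed height the median log2 ratio was 0.11 instead of 0.79. With the RPKM of the listed pseudogene copies added to each gene it was -3.00, the only reversal. The peaks of the copies were left out of the height, so this setting could only lower the ratio. Leaving out Rps20 raised the share of sites in 3′ UTRs from 59.3% to 71.4%, within its interval. Joining sites within 10 nt gave 60.0%. Depth per sample is not known from the pooled lists, and sites with few tags, such as those of Fau and Rps23 with 6 deletions each, are the least certain.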

Other observations

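The pseudogene copies of small-subunit genes hold some of the highest RPKM values in the table. Of the 264 copies, 24 stood at 200 RPKM or more, and 11 of these 24 had no CLIP peak in their span. All of the 455 protein-coding genes at that level had an exonic peak. Other pseudogenes at that level were not counted. Rps6-ps4, whose sequence is identical to the CDS of Rps6, stood at 1415 RPKM with no peak. The copies with the highest RPKM were Gm14303 of Rps29 at 7348, Gm5805 of Rps14 at 3899 and Rps16-ps2 of Rps16 at 3108, with tallest peaks of 30, 128 and 470 tags.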
